A study of Mus musculus with 6 samples.

Results

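A set of 38 genes for protein folding and quality control in the endoplasmic reticulum (ER), out of 34745 genes counted, was read in the hepatocytes of mice with and without FOXA2. The genes were taken by symbol and fall by role into 17 chaperones and folding enzymes, 6 sensors and signalling genes of the unfolded protein response, 8 genes of ER-associated degradation and 7 genes of translocation into or transport out of the ER. Primary hepatocytes came from male mice, 12 weeks old, whose Foxa2 alleles are flanked by loxP sites (FOXA2f/f) and which all received CCl4, a hepatotoxin that causes liver fibrosis, in 2 injections a week (0.25 ml/kg each) over 4 weeks, with RNA taken on the third day after the last dose. The FOXA2f/f+CCl4 group (n = 3) had been injected with AAV8-TBG-Control and the FOXA2H-KO+CCl4 group (n = 3) with AAV8-TBG-Cre, 2 weeks before CCl4. Cre was driven by the hepatocyte promoter TBG, so other cells in the preparation kept Foxa2. Mice without CCl4 were not analysed here, so the comparison is between genotypes within injured liver. Replicates carry the numbers 1, 2 and 4 in either group.

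Secretory and membrane proteins enter the ER as they are made, and chaperones and disulfide isomerases fold them there. When unfolded proteins accumulate, the sensors IRE1 (Ern1), PERK (Eif2ak3) and ATF6 are released from the chaperone BiP (Hspa5) and raise the transcription of chaperones and degradation genes, through the spliced form of XBP1, through ATF4 and through cleaved ATF6. Hepatocytes secrete most plasma proteins, carry a large ER and keep these genes at high levels also at rest. Counts per gene give the amount of each mRNA. They show neither the splicing of Xbp1 nor the phosphorylation or cleavage of the sensors.

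Many genes of the response carry the ER stress element (ERSE) in the promoter, the sequence CCAAT followed after 9 bases by CCACG, which ATF6 binds together with the CCAAT-binding factor NF-Y. In the 250 bases before the start of transcription in RefSeq (GRCm38.p6), an ERSE on either strand was found in 9 of the 30 member genes that the promoter table holds (30.0%), against 35 of all 27025 genes (0.13%). The 9 were Calr, Canx, Creld2, Derl3, Dnajc3, Hsp90b1, Hspa5, Pdia6 and Syvn1. The ERSE-II, ATTGG followed after 1 base by CCACG, was found in Herpud1 only (3.33% of the members against 0.037% of all genes). The core of the XBP1 site, TGACGTGG, was in 0 of 30 members and in 0.603% of all genes. The forkhead sequence TGTTTAC, of the kind FOXA2 binds, was in Dnajc10 only (3.33% against 3.54% of all genes), and TATTTAC was in 0 of 30 members and 3.17% of all genes. Both strands were searched, no match overlapped another motif, and a match is only a run of letters and not a measured binding site. The promoters of the members with an ERSE or ERSE-II whose levels are described gene by gene are given here. Each runs from 12 bases ahead of the element to the base before the start, 5′ to 3′ on the strand of the gene, with the element in capitals. They were chosen for holding an element, and Herpud1 holds the ERSE-II and not the ERSE.
Hspa5, chr2:34772013-34772089, plus strand: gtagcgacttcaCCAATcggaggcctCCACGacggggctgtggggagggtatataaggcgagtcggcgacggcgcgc
Hsp90b1, chr10:86705445-86705668, minus strand: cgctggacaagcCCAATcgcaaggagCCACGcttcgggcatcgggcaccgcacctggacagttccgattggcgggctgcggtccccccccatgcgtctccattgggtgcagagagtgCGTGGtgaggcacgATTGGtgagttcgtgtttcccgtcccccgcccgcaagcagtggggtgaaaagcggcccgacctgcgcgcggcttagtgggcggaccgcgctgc
Pdia6, chr12:17266479-17266588, plus strand: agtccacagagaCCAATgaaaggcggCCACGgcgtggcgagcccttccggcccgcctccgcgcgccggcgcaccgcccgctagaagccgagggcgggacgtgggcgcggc
Dnajc3, chr14:118937815-118937931, plus strand: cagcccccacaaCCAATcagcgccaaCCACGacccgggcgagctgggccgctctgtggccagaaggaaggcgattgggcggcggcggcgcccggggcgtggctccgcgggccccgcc
Creld2, chr15:88819508-88819645, plus strand: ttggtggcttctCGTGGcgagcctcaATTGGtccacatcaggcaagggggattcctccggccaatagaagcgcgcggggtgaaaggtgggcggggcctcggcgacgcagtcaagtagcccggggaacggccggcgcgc
Syvn1, chr19:6046520-6046575, plus strand: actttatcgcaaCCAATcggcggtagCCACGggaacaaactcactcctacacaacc
Derl3, chr10:75893230-75893397, plus strand: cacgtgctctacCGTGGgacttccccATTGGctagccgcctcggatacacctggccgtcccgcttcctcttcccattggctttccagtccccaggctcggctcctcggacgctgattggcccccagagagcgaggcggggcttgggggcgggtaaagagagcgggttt
Herpud1, chr8:94386365-94386428, plus strand: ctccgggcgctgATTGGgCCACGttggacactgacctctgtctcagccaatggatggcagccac
Hsp90b1 holds the element 2 times, once on each strand. In Creld2 and Derl3 it lies on the opposite strand, so that it reads CGTGG, 9 bases, ATTGG. It ended 26 bases before the start in Syvn1, 47 in Hspa5, 80 in Pdia6 and 138 in Derl3.

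The deleted gene was read first as a check of the labels. Levels are given in CPM, counts scaled to a common library size after edgeR's TMM correction. Foxa2 was at 16.3 ± 2.75 CPM (SD, n = 3) in FOXA2f/f+CCl4 and 1.14 ± 0.438 in FOXA2H-KO+CCl4 hepatocytes, and it was the 1 gene of the 14417 tested (0.00694%) that passed an adjusted p of 0.05 with at least a 2-fold change (log2 fold change, here log2FC, -3.85, with a standard error, SE, of 0.31 and an adjusted p = 0.0313 by the quasi-likelihood test of edgeR). Total counts ranged from 20983455 to 28327765 per library, and each of the 38 genes had at least 26 counts in every library. Albumin took between 9.377% and 11.018% of the counts, and markers of T cells were near 0, with Cd3e at 0.145 CPM in FOXA2f/f+CCl4. In the levels of the ER genes FOXA2f/f+CCl4 replicate 2 stood apart from the other 5 libraries, and their log2 fold changes are therefore also given without it. It was picked for its high levels in these same genes, so leaving it out raises most of their log2 fold changes by construction.

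All 38 genes passed the filter on low counts, and 0 of them reached the threshold for a call (0.00694% of all genes did), in edgeR's quasi-likelihood test and also in DESeq2, edgeR's exact test and limma-voom with library quality weights. Adjusted p-values ran from 0.65 to 0.999. Of the 38 log2 fold changes of FOXA2H-KO+CCl4 over FOXA2f/f+CCl4, 36 were below 0, against 52.2% of all genes tested, and this count was 31 when libraries were scaled by total count alone, 30 on log2(FPKM + 1) and 27 without FOXA2f/f+CCl4 replicate 2, where 51.0% of all genes were below 0. The median was -0.32, beside -0.01 over all genes tested, and it was -0.06 without that library. An unadjusted p under 0.05 was reached by 4 members, Ern1, Syvn1, Derl2 and Sdf2l1, all lower in FOXA2H-KO+CCl4, against 5.17% of all genes in either direction and 3.18% lower. These 4 and Pdia6 were the 5 members in which all 3 FOXA2H-KO+CCl4 libraries lay below all 3 FOXA2f/f+CCl4 libraries, which was the case for 5.96% of all genes. In bulk RNA, fewer cells of a type and less RNA per cell cannot be told apart.

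The ER genes took 0.8115%, 1.144% and 0.8972% of all counts in FOXA2f/f+CCl4 replicates 1, 2 and 4. In FOXA2H-KO+CCl4 replicates 1, 2 and 4 they took 0.859%, 0.8895% and 0.766%. The highest share was thus in a control library, and the other 5 libraries overlapped between genotypes. In 34 of the 38 genes FOXA2f/f+CCl4 replicate 2 was the highest of the 6 libraries, compared with 29.7% of all genes tested. On the log2 scale the members lay a median of 0.61 above the mean of the other 5 libraries in it, while all genes lay 0.02 above. The medians in the other 5 libraries were between -0.23 and 0.00.

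**Figure D1:**
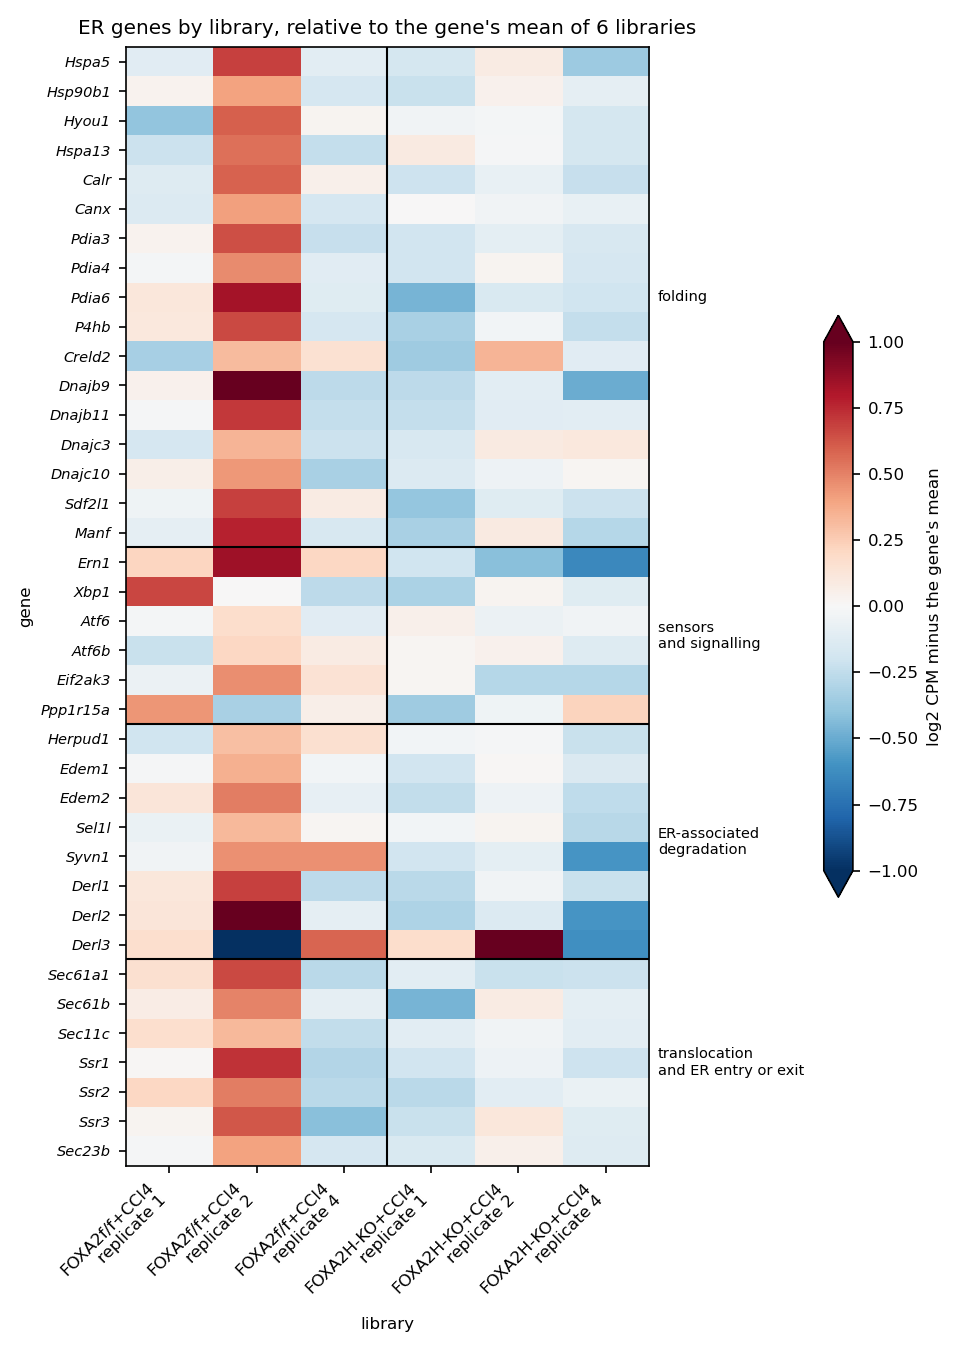
Heat map of the 38 ER genes (vertical axis, grouped by role) in the 6 libraries (horizontal axis). Colour is log2 CPM minus the gene's mean over the 6 libraries, and arrowheads on the scale mark values beyond 1; the column of FOXA2f/f+CCl4 replicate 2 is red in nearly every gene, with Derl3, Ppp1r15a and Xbp1 as the genes that are not raised there, and Ern1 is blue in all 3 FOXA2H-KO+CCl4 columns.

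Other lists of genes differed in the same library. Summed over 9 markers, macrophage genes were at 524 CPM in FOXA2f/f+CCl4 replicate 2 and between 1144 and 2468 CPM in the other libraries. Endothelial markers summed to 255 CPM there and to between 425 and 871 elsewhere, stellate cell and fibroblast markers to 1085 and between 1311 and 2782, and neutrophil markers to 8.22 and between 18.5 and 64.0. The sums of cholangiocyte markers (174 CPM) and of T and NK cell markers (0.603 CPM) were lowest there as well. The immediate early genes, which are induced during cell isolation, summed to 324 CPM in it and to between 750 and 1043 in the others. The hepatocyte markers summed to 164619 CPM there, of which albumin made up 124578 CPM, and to between 115604 and 147516 in the others. By share of all counts, without TMM scaling, albumin was highest in FOXA2H-KO+CCl4 replicate 4, at 11.018% against 10.828% in FOXA2f/f+CCl4 replicate 2. Cyp2e1, the ethanol-inducible cytochrome P450 of the pericentral zone, was at 291 CPM in FOXA2f/f+CCl4 replicate 2 against 1023 to 1685 in the others. So the library with the highest ER gene levels had the lowest sums of the macrophage, endothelial and stellate cell and fibroblast lists. The same held for the neutrophil, cholangiocyte, T and NK cell and immediate early lists. In TMM-scaled CPM it also had the highest sum of the hepatocyte list, while by share of counts albumin was not highest there. Its plasma and B cell sum, 263 CPM, was not the lowest, but 251 CPM of it came from Sdc1, which hepatocytes express too. Each of the other plasma and B cell markers tested was lowest in this library. The part of these differences in the results on ER genes was not tested.

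**Figure D2:**
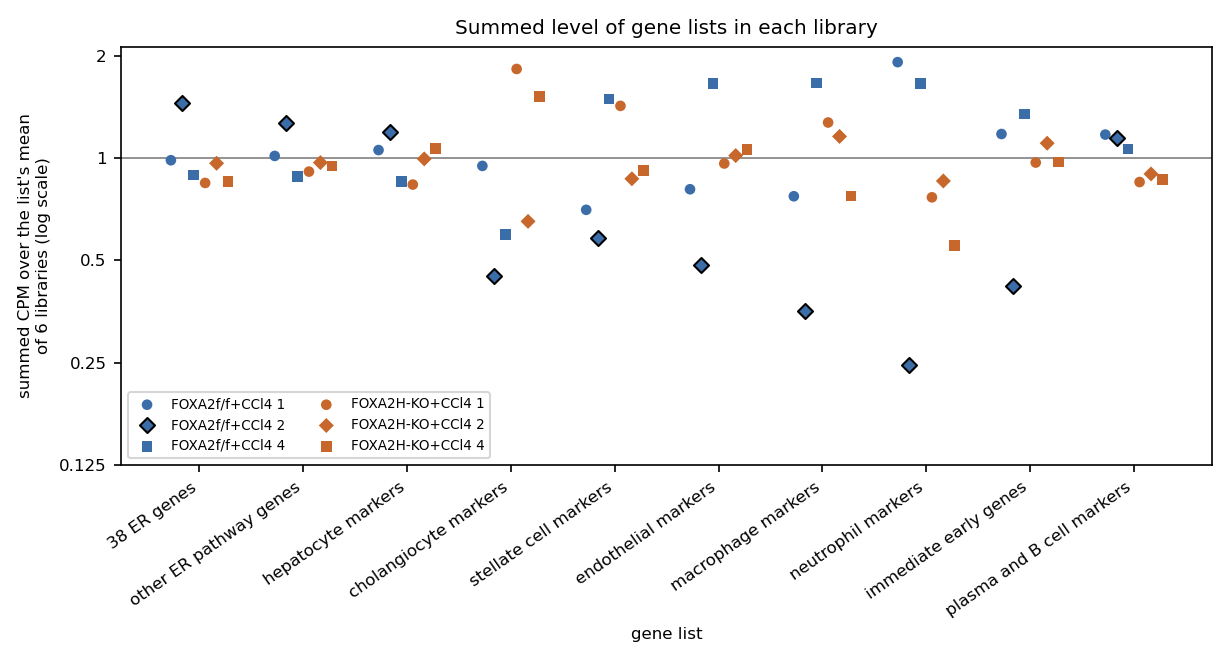
Summed CPM of each gene list (horizontal axis) in each of the 6 libraries, divided by the list's mean over the 6 libraries (vertical axis, log scale). FOXA2f/f+CCl4 replicate 2, the diamond with a black outline, is the highest for the 38 ER genes at 13163 CPM against 7649 to 8922, and the lowest for the cholangiocyte, stellate cell, endothelial, macrophage, neutrophil and immediate early lists.

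Levels between genes were compared per length, as the authors' FPKM, which divide the counts by gene length and by the library total. The most abundant member was P4hb, the disulfide isomerase PDI, with a mean of 514 FPKM in FOXA2f/f+CCl4, followed by Pdia3 at 173, the lectin chaperone Calr at 165, Hspa5 at 131 and Hsp90b1 at 111. The folding genes thus held the first 5 places. Among the sensors, Xbp1 was at 44.9 FPKM, whereas Atf6, Ern1, Atf6b, Eif2ak3 and Ppp1r15a lay between 2.07 and 10.5. Herpud1, at 101 FPKM, led the degradation genes, and the signal sequence receptor subunit Ssr3, at 96.2, led the translocation genes.

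Of the 17 folding genes, 16 had a log2FC below 0 and 1 above, with a median of -0.35 and, without FOXA2f/f+CCl4 replicate 2, of -0.03. An unadjusted p under 0.05 was found for 1 of the 17 (5.88%, against 5.17% of all genes), and for 0 without that library. The groups did not overlap in 2 (11.8%), both lower in FOXA2H-KO+CCl4, as in 5.96% of all genes. Hspa5 (ENSMUSG00000026864) encodes BiP, the ER member of the HSP70 family that binds unfolded chains and holds the sensors inactive. It was at 772, 1341 and 776 CPM in FOXA2f/f+CCl4 replicates 1, 2 and 4. It was at 739, 884 and 649 CPM in FOXA2H-KO+CCl4 replicates 1, 2 and 4. The highest FOXA2H-KO+CCl4 library was above FOXA2f/f+CCl4 replicates 1 and 4, so the groups overlapped, and the log2FC of -0.35 (SE 0.27, adjusted p = 0.983, edgeR) became -0.03 without FOXA2f/f+CCl4 replicate 2. Hsp90b1, the ER member of the HSP90 family, had 602, 778 and 523 CPM against 504, 605 and 551 CPM. Here too the groups overlapped (log2FC -0.20, SE 0.20, and -0.02 without the same library), and 15.7% of its annotated exon sequence is shared with other genes, so its count is less certain. The same holds for Eif2ak3 (8.0%), Sec61a1 (8.2%), Manf (9.3%) and Ssr2 (12.8%).

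Sdf2l1, a partner of the DNAJ proteins that keeps chains from aggregating, had the smallest p of the folding genes. It was at 22.2, 36.9 and 24.3 CPM in FOXA2f/f+CCl4 and at 17.5, 21.1 and 19.7 CPM in FOXA2H-KO+CCl4. All 3 FOXA2H-KO+CCl4 values lay below the lowest FOXA2f/f+CCl4 value by a small margin, and the log2FC was -0.51 (SE 0.21, unadjusted p = 0.0421, adjusted p = 0.941, edgeR). Without FOXA2f/f+CCl4 replicate 2 it was -0.25 (unadjusted p = 0.121, edgeR). Pdia6, a disulfide isomerase, had 409, 672 and 348 CPM against 274, 340 and 329 CPM. The groups did not overlap, with FOXA2f/f+CCl4 replicate 4 just above FOXA2H-KO+CCl4 replicate 2, and the log2FC was -0.60 (SE 0.26, unadjusted p = 0.0523, edgeR) or, without FOXA2f/f+CCl4 replicate 2, -0.27. Dnajb9, a co-chaperone of BiP that represses IRE1, had the lowest log2 fold change of the folding genes, -0.68 (SE 0.33). It was at 95.9, 198 and 77.7 CPM in FOXA2f/f+CCl4 and at 77.6, 86.9 and 66.2 CPM in FOXA2H-KO+CCl4. FOXA2f/f+CCl4 replicate 2 was 2.28 times the mean of the other FOXA2f/f+CCl4 libraries, and without it the value was -0.17.

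At the other end of the folding genes were Dnajc3 and Creld2. Dnajc3, the co-chaperone P58IPK that also inhibits PERK, had 269, 383 and 260 CPM against 271, 322 and 326 CPM, means of 304 ± 68.6 and 306 ± 31.0 (SD, n = 3), and a log2FC of 0.01 (SE 0.20, and 0.21 without FOXA2f/f+CCl4 replicate 2). Its sign turned in 4 of the fits that each left out a library, with values down to -0.09. Creld2, a secreted folding factor, had 26.7, 41.9 and 37.3 CPM against 26.3, 42.5 and 31.1 CPM, with a log2FC of -0.08 (SE 0.23). The highest and the lowest of its 6 libraries were both FOXA2H-KO+CCl4 libraries. The log2 fold changes of the other 10 folding genes, Hyou1, Hspa13, Calr, Canx, Pdia3, Pdia4, P4hb, Dnajb11, Dnajc10 and Manf, lay between -0.43 (P4hb) and -0.10 (Canx), and in all 10 the groups overlapped. The values of Hspa13, Canx and Creld2 were above 0 when libraries were scaled by total count alone (0.04, 0.04 and 0.02), and without FOXA2f/f+CCl4 replicate 2 those of Hyou1, Hspa13, Canx, Creld2 and Dnajc10 were between 0.06 and 0.20. Those of Calr, Pdia3, Pdia4, P4hb, Dnajb11 and Manf were then between -0.16 (P4hb) and -0.03 (Dnajb11).

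Of the 6 sensors and signalling genes, all had a log2FC below 0 (median -0.23, and -0.26 without FOXA2f/f+CCl4 replicate 2), although Atf6 and Atf6b were at 0.10 and 0.07 with total count as the scale. Ern1 (ENSMUSG00000020715; chromosome 11, 106394650 to 106487852 on GRCm38, minus strand) encodes IRE1, the kinase and endonuclease that splices Xbp1 mRNA. It was at 86.8, 134 and 86.1 CPM in FOXA2f/f+CCl4 replicates 1, 2 and 4. It was at 64.9, 55.8 and 47.7 CPM in FOXA2H-KO+CCl4 replicates 1, 2 and 4. Every FOXA2H-KO+CCl4 library was below every FOXA2f/f+CCl4 library (p = 0.1 by an exact permutation test, two-sided, which 3 against 3 libraries cannot go below), and the means were 102 ± 27.2 and 56.1 ± 8.60 CPM (SD, n = 3), a ratio of 0.55. The log2FC of -0.86 was the lowest of the 38 members (SE 0.21, unadjusted p = 0.00382, adjusted p = 0.65, edgeR). It stayed between -0.98 and -0.62 over all alternative settings, with an unadjusted p under 0.05 in each of them and adjusted p-values from 0.0538 (DESeq2) to 1. Without FOXA2f/f+CCl4 replicate 2 it was -0.62 (SE 0.15, unadjusted p = 0.00415, adjusted p = 0.379, edgeR).

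Xbp1, whose spliced form is the transcription factor downstream of IRE1, was at 297, 187 and 156 CPM in FOXA2f/f+CCl4 and at 150, 190 and 172 CPM in FOXA2H-KO+CCl4. Only FOXA2f/f+CCl4 replicate 1 stood above the rest, and the log2FC of -0.32 (SE 0.25) was 0.01 without that library and -0.41 without FOXA2f/f+CCl4 replicate 2. Xbp1 is thus 1 of the 4 members that were not highest in FOXA2f/f+CCl4 replicate 2, with Ppp1r15a, Creld2 and Derl3. Eif2ak3, which encodes PERK, the kinase of the initiation factor eIF2, was at 18.9, 27.3 and 21.8 CPM against 20.0, 16.2 and 16.2 CPM. FOXA2H-KO+CCl4 replicate 1 lay above FOXA2f/f+CCl4 replicate 1, and the log2FC was -0.37 (SE 0.18, unadjusted p = 0.0706, edgeR) or, without FOXA2f/f+CCl4 replicate 2, -0.22. Atf6, the membrane-bound transcription factor that is cleaved in the Golgi, varied little, with 100, 114 and 93.4 CPM against 105, 97.0 and 98.7 CPM. Its log2FC was -0.03 (SE 0.13), and that of its paralogue Atf6b, at 18.9, 25.4 and 23.3 against 22.3, 22.7 and 20.2 CPM, was -0.05 (SE 0.15). Both were at 0.05 without FOXA2f/f+CCl4 replicate 2. Ppp1r15a, the phosphatase subunit GADD34 that reverses the phosphorylation of eIF2, was at 11.9 ± 3.13 and 10.8 ± 2.18 CPM (SD, n = 3; log2FC -0.14, SE 0.24, and -0.30 without FOXA2f/f+CCl4 replicate 2).

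**Figure D3:**
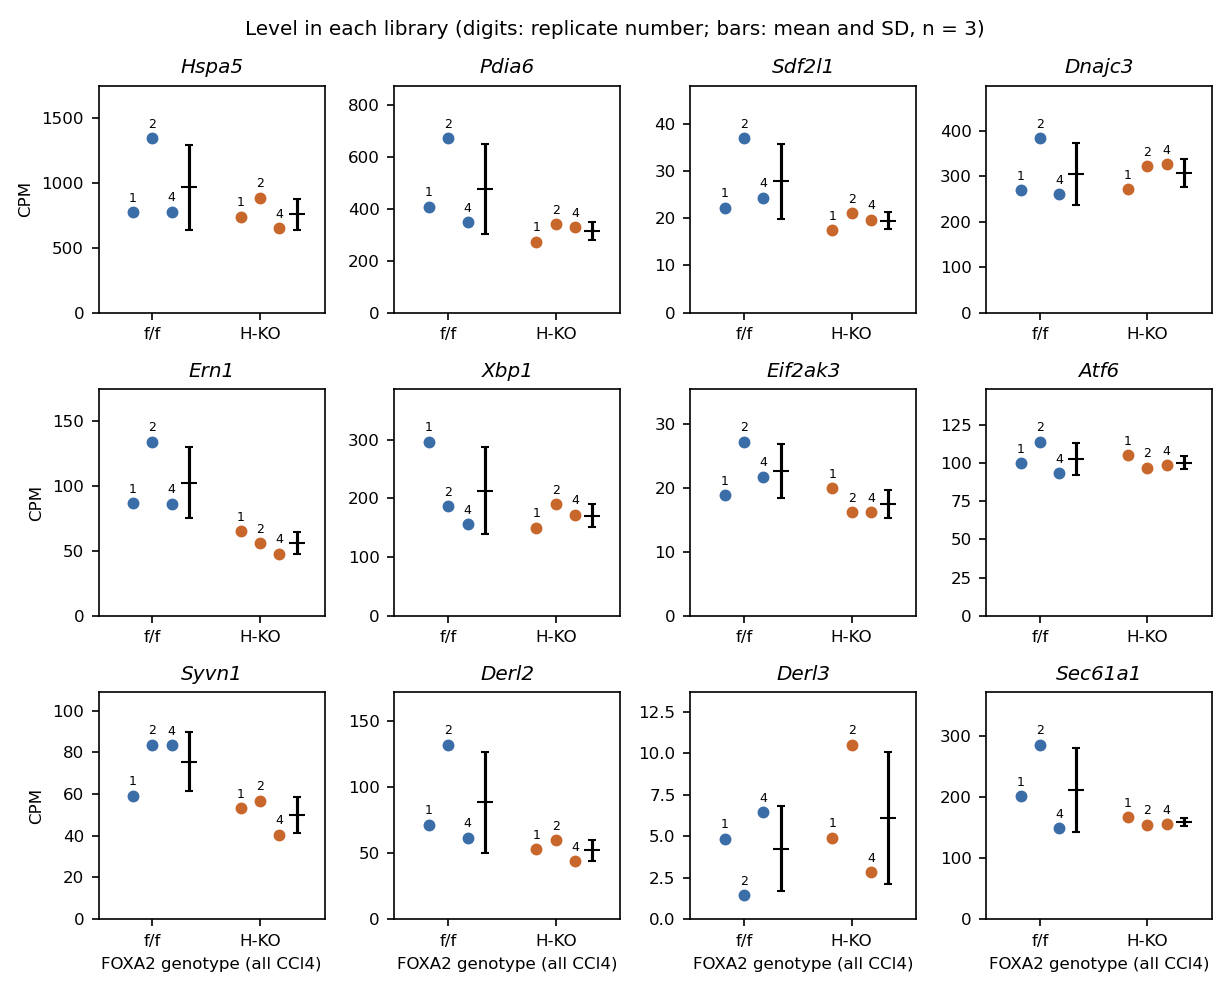
CPM (vertical axis, from 0) of 12 ER genes in each library, by FOXA2 genotype (horizontal axis, blue f/f and orange H-KO, all with CCl4). Points are libraries with their replicate number, and the bar beside them is the mean with its SD (n = 3); in Ern1, Syvn1, Derl2, Sdf2l1 and Pdia6 all orange points lie below all blue points, and in the other 7 genes the groups overlap.

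Of the 8 genes of ER-associated degradation, 7 had a log2FC below 0 (median -0.30, and -0.10 without FOXA2f/f+CCl4 replicate 2), and 2 had an unadjusted p under 0.05 (1 without that library). Both were components of the membrane complex that exports misfolded proteins for degradation. Syvn1 (ENSMUSG00000024807), the ubiquitin ligase HRD1, was at 59.2, 83.6 and 83.5 CPM in FOXA2f/f+CCl4 and at 53.2, 56.7 and 40.4 CPM in FOXA2H-KO+CCl4. The groups did not overlap, although FOXA2f/f+CCl4 replicate 1 and FOXA2H-KO+CCl4 replicate 2 were close. The log2FC was -0.59 (SE 0.19, unadjusted p = 0.0155, adjusted p = 0.811, edgeR), and it was -0.51 without FOXA2f/f+CCl4 replicate 2 (unadjusted p = 0.0374, edgeR). Derl2 (ENSMUSG00000018442), a Derlin of the export channel, was at 71.3, 132 and 61.7 CPM against 52.9, 59.8 and 43.7 CPM. FOXA2f/f+CCl4 replicate 2 was 1.98 times the mean of the other FOXA2f/f+CCl4 libraries, and the log2FC of -0.76 (SE 0.29, unadjusted p = 0.0312, adjusted p = 0.915, edgeR) was -0.35 without it (unadjusted p = 0.0665, edgeR).

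Derl3, a further Derlin, ran the other way. It was at 4.85, 1.43 and 6.45 CPM in FOXA2f/f+CCl4 and at 4.89, 10.5 and 2.82 CPM in FOXA2H-KO+CCl4. FOXA2f/f+CCl4 replicate 2, the highest library for the other Derlins, was the lowest here, and the log2FC of 0.51 (SE 0.61, adjusted p = 0.983, edgeR) was 0.11 without FOXA2f/f+CCl4 replicate 2 and turned to -0.15 without FOXA2H-KO+CCl4 replicate 2. Plasma cells also express Derl3. Of 10 plasma and B cell markers tested 6 were above 0 and 4 below (median 0.23), and the list summed to between 244 and 269 CPM in FOXA2f/f+CCl4 and between 195 and 206 CPM in FOXA2H-KO+CCl4. Among them Pou2af1 was, like Derl3, highest in FOXA2H-KO+CCl4 replicate 2 (log2FC 0.57), Jchain and Mzb1 were highest in FOXA2f/f+CCl4 replicate 4 (-0.72 and -0.79), and Tnfrsf17, a defining marker of plasma cells, was at 0 counts in 3 of the 6 libraries. The part of these cells in the Derl3 value was not tested. Sel1l, the adaptor of HRD1, was at 153, 200 and 162 CPM against 157, 163 and 132 CPM (log2FC -0.18, SE 0.16, and -0.06 without FOXA2f/f+CCl4 replicate 2), and the groups overlapped. Herpud1, a scaffold of the same complex, was at 361, 512 and 465 CPM against 408, 411 and 355 CPM (log2FC -0.19, SE 0.18, and -0.07 without it). The mannosidase family members Edem1 and Edem2 were at -0.22 and -0.38, and Derl1 was at -0.40, with overlap in each. These were -0.09, -0.20 and -0.11 without FOXA2f/f+CCl4 replicate 2.

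All 7 genes of translocation and ER entry or exit had a log2FC below 0, between -0.42 and -0.17, with a median of -0.32 that was -0.06 without FOXA2f/f+CCl4 replicate 2. The groups overlapped in each of them, and 0 had an unadjusted p under 0.05. Sec61a1, the channel through which chains enter the ER, was at 201, 285 and 149 CPM against 167, 154 and 155 CPM (log2FC -0.42, SE 0.23, and -0.14 without FOXA2f/f+CCl4 replicate 2). The FOXA2H-KO+CCl4 libraries were close to each other and above FOXA2f/f+CCl4 replicate 4. Ssr1, a subunit of the translocon-associated complex, was at 168, 275 and 136 CPM against 146, 161 and 144 CPM (log2FC -0.36, SE 0.25, and -0.01 without FOXA2f/f+CCl4 replicate 2). Sec11c, a catalytic subunit of signal peptidase, was at 28.7, 32.0 and 21.5 CPM against 23.8, 24.9 and 23.7 CPM (log2FC -0.18, SE 0.17, and -0.06 without it). Sec23b, of the COPII coat that carries cargo out of the ER, was at 57.4, 76.7 and 51.6 CPM against 52.0, 60.1 and 53.0 CPM (log2FC -0.17, SE 0.17, and 0.02 without FOXA2f/f+CCl4 replicate 2). In all 4 the lowest library was FOXA2f/f+CCl4 replicate 4 and the highest FOXA2f/f+CCl4 replicate 2, so the control group spanned the whole range. Sec61b, Ssr2 and Ssr3 were at -0.32, -0.33 and -0.21, and without FOXA2f/f+CCl4 replicate 2 at -0.14, -0.13 and 0.11.

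**Figure D4:**
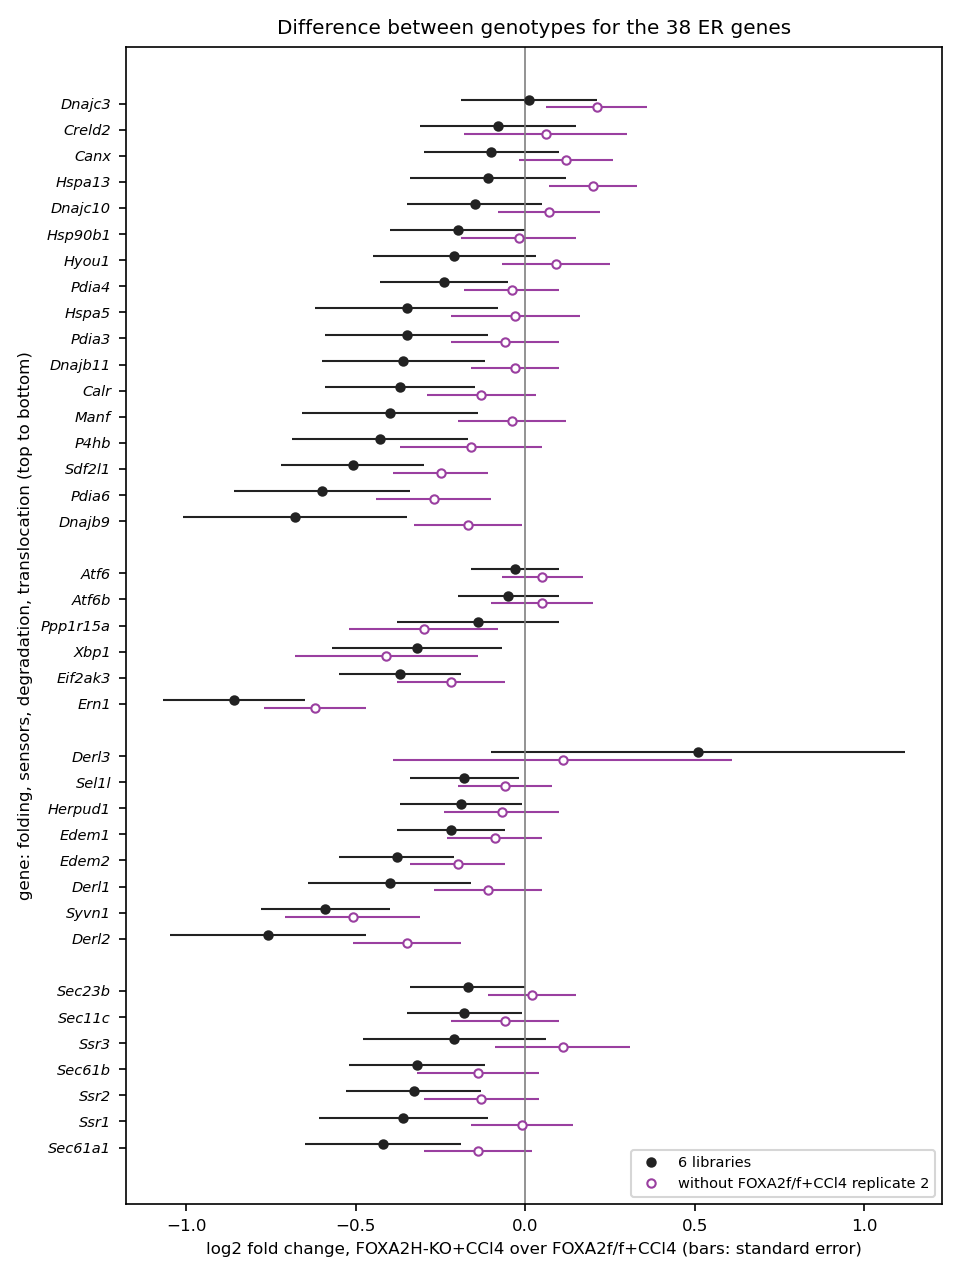
Log2 fold change of FOXA2H-KO+CCl4 over FOXA2f/f+CCl4 (horizontal axis) for the 38 ER genes (vertical axis, folding, sensors, degradation and translocation genes from top to bottom). Filled points are from all 6 libraries and open points from the 5 without FOXA2f/f+CCl4 replicate 2, bars are standard errors, and the open points lie nearer 0 in most genes, with Ern1 at -0.62 and Syvn1 at -0.51 the lowest of them.

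The choice of the library left out mattered in the other direction as well. Without FOXA2f/f+CCl4 replicate 4, which had the highest sums of the macrophage and endothelial markers, 15 members had an unadjusted p under 0.05 and the median was -0.43, but 16.6% of all genes then had such a p. Of the 4 members with an unadjusted p under 0.05 in all 6 libraries, Ern1 and Syvn1 had one without FOXA2f/f+CCl4 replicate 2 also, and Ern1 alone without FOXA2H-KO+CCl4 replicate 4.

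The log2 fold changes of the 9 members with an ERSE in the promoter ran from -0.60 (Pdia6) to 0.51 (Derl3), with a median of -0.20, and the 21 members whose promoters held none ran from -0.86 to -0.05 with a median of -0.32. The medians without FOXA2f/f+CCl4 replicate 2 were -0.02, with 5 of the 9 below 0, and -0.09, with 17 of the 21 below 0. The difference between these groups of genes was not tested. The 2 members above 0 with all 6 libraries, Derl3 and Dnajc3, both belong to the 9.

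Other genes of the pathway, from 6 lists written from general knowledge, were read in the same fit. Of 133 such genes 130 were tested, 0 were called and 100 had a log2FC below 0 (median -0.13), against 52.2% of all genes. In edgeR's test 9 (6.92%) had an unadjusted p under 0.05, all lower in FOXA2H-KO+CCl4. Over all genes 5.17% had such a p in either direction, and 3.18% were lower with such a p. Without FOXA2f/f+CCl4 replicate 2, which was the highest library in 84 of the 130, 65 of 131 were below 0 and the median was 0.00. In the PERK, ATF4 and CHOP branch, 14 of 21 were below 0, with or without that library. An unadjusted p under 0.05 was found for 4 of them (19.0%, against 5.17% of all genes), and for 2 without it (9.52%, against 5.59% of all genes). Ddit3, which encodes CHOP, the factor of this branch that is linked to cell death, was at 7.04, 4.00 and 9.41 CPM in FOXA2f/f+CCl4 and at 7.54, 11.5 and 4.58 CPM in FOXA2H-KO+CCl4. Of its exon sequence 10.9% is shared with other annotated genes, among them a second Ddit3 entry on the same strand. The groups overlapped, and the log2FC of 0.20 (SE 0.40, adjusted p = 0.991, edgeR) was -0.06 without FOXA2f/f+CCl4 replicate 2. Atf4, the factor above it, was at 74.1, 68.9 and 49.4 CPM against 44.3, 50.2 and 54.8 CPM (log2FC -0.37, SE 0.18, unadjusted p = 0.075, edgeR, and -0.31 without that library).

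The smallest p-values of that branch belonged to Asns and Chac1, both targets of ATF4. Asns, asparagine synthetase, was at 16.6, 10 and 4.58 CPM against 2.72, 2.25 and 2.17 CPM. All FOXA2H-KO+CCl4 libraries were below all FOXA2f/f+CCl4 libraries, which themselves differed widely. Its log2FC was -2.12 (SE 0.44, unadjusted p = 0.00159, adjusted p = 0.579, edgeR), and it passed the threshold with DESeq2 (adjusted p = 0.00183) and edgeR's exact test (adjusted p = 0.00611), while over all alternatives the adjusted p reached 1. Chac1, which degrades glutathione, was at 5.20, 3.51 and 5.98 CPM against 1.95, 2.81 and 1.25 CPM (log2FC -1.29, SE 0.36, adjusted p = 0.693, edgeR), without overlap. Without FOXA2f/f+CCl4 replicate 2 the values were -2.14 and -1.47.

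In the list of other sensing and regulation genes, Creb3l2, a membrane-bound transcription factor that is cleaved like ATF6, was at 57.6, 65.1 and 66.1 CPM against 45.2, 44.5 and 41.8 CPM. The groups were far apart relative to their spread (log2FC -0.52, SE 0.12, unadjusted p = 0.00234, adjusted p = 0.579, edgeR, and -0.50 without FOXA2f/f+CCl4 replicate 2). Its adjusted p was between 0.0477, with DESeq2, and 1, below a 2-fold change throughout. Bhlha15, the secretory cell factor MIST1 and a target of XBP1, was at 4.25, 14.6 and 2.99 CPM against 1.8, 1.20 and 1.34 CPM. It was highest in FOXA2f/f+CCl4 replicate 2, yet the groups did not overlap without it either (log2FC -2.31, SE 0.61, adjusted p = 0.65, edgeR, and -1.31 without it), and it passed the threshold with DESeq2 (adjusted p = 0.015) and edgeR's exact test (adjusted p = 0.0464), with values up to 1 in the other settings.

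In the remaining 4 lists, too, values without FOXA2f/f+CCl4 replicate 2 are given after those from all 6 libraries. Of 28 other folding and glycan quality control genes, 26 were below 0 (median -0.14) and 3 had an unadjusted p under 0.05 (10.7%, against 5.17% of all genes). They were led by Fkbp11, a proline isomerase (23.4, 38.4 and 15.8 against 10.3, 15.0 and 12.8 CPM, log2FC -1.02, SE 0.32), and Qsox1, a sulfhydryl oxidase (312, 302 and 266 against 183, 226 and 241 CPM, log2FC -0.44, SE 0.16). Both were without overlap, and without FOXA2f/f+CCl4 replicate 2 they were at -0.62 and -0.41, while 15 of the 29 genes then tested were below 0, with a median of -0.02. Of 22 other degradation genes, 14 were below 0 with a median of -0.02 and 0 had an unadjusted p under 0.05. The smallest p-values there were those of Aup1, which recruits a ubiquitin-conjugating enzyme (log2FC -0.24, SE 0.13, with 23.0% of its exon sequence shared with other genes), and the lectin Os9 (-0.22, SE 0.16). Without FOXA2f/f+CCl4 replicate 2 these were -0.15 and -0.07, and 5 of the 22 were below 0 and 17 above (median 0.06). Of 27 other translocation, signal peptidase and oligosaccharyltransferase genes, 23 were below 0 (median -0.16), with Ddost at -0.41 (SE 0.19) and Dad1 at -0.30 (SE 0.16), both subunits of oligosaccharyltransferase. Here 15 were below 0 without FOXA2f/f+CCl4 replicate 2 (median -0.02), with Ddost at -0.18 and Dad1 at -0.17. Of 20 COPII and ER retrieval genes, 13 were below 0 (median -0.07) and none of their p-values was under 0.05. In Mia2, a cargo receptor at ER exit sites, all 3 FOXA2H-KO+CCl4 libraries, at 314, 315 and 311 CPM, were above FOXA2f/f+CCl4, at 282, 293 and 222 CPM (log2FC 0.24, SE 0.16), and Kdelr2, the receptor that returns BiP to the ER, was at -0.26 (SE 0.18). They were at 0.32 and -0.10 without FOXA2f/f+CCl4 replicate 2, where 6 of the 20 were below 0 and 14 above (median 0.02).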

How the data were processed

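Poly-A RNA of 6 hepatocyte preparations was sequenced as paired-end libraries, 3 per group, grouped and numbered by the sample titles. The authors deposited whole-number counts for 34745 Ensembl genes in each library and the authors' FPKM values, which are those counts per gene length and total count. The submitters' processing notes name CASAVA 1.8, TopHat2 2.1.0, HTSeq and edgeR and the build mm10, with no role or order. The annotation used for counting and the use of strand are not given in the sources used here, so reads of overlapping genes may be shared.

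Counts were tested with edgeR 4.0.16 in R 4.3.3 (TMM scaling, filterByExpr, quasi-likelihood test without a block, Benjamini-Hochberg over 14417 genes). A call needed an adjusted p under 0.05 and a 2-fold change. CPM values use the TMM-adjusted library size. The labels do not state that replicates came from separate animals, so p-values measure the spread between these libraries. No 2 libraries of a group were near-identical: the variance between their counts was 35.9 to 123.1 times that of sampling noise (chi-square per degree of freedom). Fits were tested on simulated data. Alternatives were DESeq2 1.42.0, limma-voom with library quality weights (limma 3.58.1), edgeR's exact test, other scalings and filters, log2(FPKM + 1) and log2(FPKM + 0.1) with limma, the replicate number as a block, no fold threshold and each library left out in turn. Positions and exon overlaps are from GENCODE M21, and promoters from RefSeq (GRCm38.p6), which held 30 of the 38 members.

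The members, the roles and all gene lists were chosen with earlier results of these data known. Values per library are given for members with an unadjusted p under 0.05, the 2 highest and 2 lowest of each role, Hspa5, Hsp90b1, Ern1, Xbp1, Atf6 and Eif2ak3. Herpud1 was added for its promoter. Outside the members, Foxa2, Ddit3, Atf4 and the 2 genes with the smallest p in each list are named, and marker genes where a result turns on them.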

Additional observations from a re-analysis of the deposited data

How the results depend on the processing

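The number of ER members called was 0 in all 17 alternatives. The number of genes called over all genes, 1 as reported, was 70 with DESeq2, 64 with edgeR's exact test, 4 with limma-voom with library quality weights, 2 without a filter on low counts, and 0 with total count as the scale, on both FPKM scales and with the replicate block. Between 0 and 6 were called when a library was left out, 6 of them without FOXA2f/f+CCl4 replicate 2. The number of members with an unadjusted p under 0.05, 4 as reported, is given beside the share of all genes with such a p, 5.17% as reported. There were 7 such members without a filter (4.84% of all genes) and 7 with limma-voom with library quality weights (14.9%). There were 2 with total count (5.01%) and 1 on both FPKM scales (6.3% and 6.25%). With a library left out there were between 1 (2.78%, without FOXA2H-KO+CCl4 replicate 4) and 15 (16.6%, without FOXA2f/f+CCl4 replicate 4). The members' median, -0.32 as reported, ran from -0.43 (without FOXA2f/f+CCl4 replicate 4) to -0.06 (without FOXA2f/f+CCl4 replicate 2). With total count as the scale the median of all genes moved from -0.012 to 0.104, and that of the members lay 0.29 below it in place of 0.31 below. Correlations of deviations from the group means were -0.0688, 0.0262 and -0.226 between the libraries numbered 1, 2 and 4 in either group. Between libraries of different numbers they ran from -0.188 to 0.253. With 3 libraries per group these values cannot settle whether the numbers pair the libraries. With the replicate block the members' median was -0.28, and 5 had an unadjusted p under 0.05 (4.73% of all genes did).

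Over 53 genes and 16 alternatives, 45 of 848 log2 fold changes changed sign, in 15 genes, none of them past the threshold in either direction. With total count as the scale and on log2(FPKM + 1) and log2(FPKM + 0.1), the values were 0.04, 0.05 and 0.06 for Hspa13, 0.04, 0.05 and 0.05 for Canx, 0.02, 0.03 and 0.04 for Creld2, 0.10, 0.09 and 0.09 for Atf6, and 0.07, 0.07 and 0.08 for Atf6b. On both FPKM scales Dnajc10 was at 0.01, and on the second Ppp1r15a was at 0.00. With limma-voom with library quality weights Hyou1 was at 0.15, Hspa13 at 0.08, Canx at 0.03, Creld2 at 0.25, Atf6b at 0.12 and Herpud1 at 0.01. With a library left out, values ran from -0.40 to 0.09 for Hyou1, -0.24 to 0.20 for Hspa13, -0.20 to 0.12 for Canx, -0.30 to 0.06 for Creld2, -0.09 to 0.21 for Dnajc3, -0.32 to 0.07 for Dnajc10, -0.50 to 0.01 for Xbp1, -0.10 to 0.05 for Atf6, -0.15 to 0.05 for Atf6b, -0.30 to 0.09 for Ppp1r15a, -0.15 to 0.94 for Derl3, -0.42 to 0.11 for Ssr3, -0.28 to 0.02 for Sec23b and -0.17 to 0.51 for Ddit3. The cause was not tested. Foxa2 stayed between -4.17 and -1.95 and missed the threshold in 9 alternatives, and Asns and Bhlha15 passed it with DESeq2 and edgeR's exact test.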

Other observations

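Of the genes outside the 38 whose RefSeq promoter holds an ERSE, 9 were tested in these libraries. Their log2 fold changes had a median of -0.25, 7 below 0 and 2 above, and none was called. Among them Alg12, a mannosyltransferase that builds the glycan attached to proteins in the ER, was at 8.91 CPM in FOXA2f/f+CCl4 and 7.46 CPM in FOXA2H-KO+CCl4 (log2 fold change -0.25), and it is named after its values were seen.

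The log2 fold change of cholangiocyte markers was above 0 in each of the 5 genes tested, with a median of 0.91. They summed to 367, 174 and 231 CPM in FOXA2f/f+CCl4 and to 708, 252 and 588 CPM in FOXA2H-KO+CCl4, so the sums overlapped, and 0 of the 5 were called. Spp1, which made up 353, 164 and 222 CPM and 687, 241 and 573 CPM of these sums, overlapped too. Krt19 and Krt7, keratins of bile duct cells, did not, and were at 1.42, 0.987 and 1.14 and 1.12, 0.548 and 1.21 CPM in FOXA2f/f+CCl4 against 3.38, 1.44 and 1.85 and 2.83, 1.36 and 1.71 CPM in FOXA2H-KO+CCl4. Among the sums of the marker lists, those of plasma and B cells did not overlap, at 269, 263 and 244 CPM in FOXA2f/f+CCl4 and 195, 206 and 198 CPM in FOXA2H-KO+CCl4. Of these sums Sdc1, which hepatocytes express too, made up 227, 251 and 196 CPM and 172, 174 and 176 CPM.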
